A study of Mus musculus with 6 samples.

Results

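The genes described here encode the enzymes that make citrulline, arginine, ornithine, polyamines and creatine, measured in C57BL/6 mice on postnatal day 9, in the terminal ileum, where the small intestine ends. They are Aldh18a1, Cps1, Otc, Ass1, Asl, Arg1, Arg2, Odc1, Gatm and Gamt. They were chosen by name, with their FPKM in the NEC and control libraries already known, and all 10 were found among the 55487 genes of the deposited table. Because those values took part in the choice, the member values below are a description, and no p-value is given for a member. The study had 3 libraries labelled NEC (necrotizing enterocolitis, an inflammatory disease of the newborn bowel) and 3 labelled control. The labels describe induction by a hyperosmolar formula given by gavage. To this were added 10 min of 5% O2, repeated 3 times daily for 4 days, and lipopolysaccharide (LPS, 4 mg/kg daily) by mouth on days 6 and 7 after birth. The control labels carry the same text, so how control pups were fed and handled is not known from them. The labels do not say whether each library came from a separate animal, so errors and p-values measure only the spread between libraries, which may be technical.

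In the suckling small intestine, enterocytes turn glutamine and proline into ornithine, and ornithine into citrulline, inside their mitochondria. Before weaning the same cells also carry citrulline on to arginine, while arginase is low in them, so the gut is a source of arginine for a pup whose milk holds little of it. Arginine is then drawn on for protein, nitric oxide, ornithine and polyamines, and creatine.

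Values were read as FPKM, fragment numbers divided by transcript length and by library depth, so levels can be set beside each other between genes. From the step between low values, each library held 15.2 to 18.7 M fragments. NEC and control were compared with limma on log2(FPKM + 1). The 15806 genes averaging 1 FPKM or more were tested, and a gene is called when its Benjamini-Hochberg adjusted p over all of them is under 0.05. The median tested gene differed by -0.26 (log2) without further scaling and by 0.00 after TMM scaling, which sets library totals by the bulk of genes, so each change has to be read against that shift. NEC 1 stood apart from the other libraries: the 7SL RNA gene Rn7s1 took 42.7% of its total FPKM, and the 10 smooth muscle and fibroblast markers summed to 225 FPKM in it, against 893 and 923 in NEC 2 and 3 and 1248 to 1500 in control.

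Among the tested members Gatm stood apart in the size of its change. Of the 8 members that passed the filter, Ass1 and Odc1 were called higher in NEC, Gatm and Gamt were called lower, and Aldh18a1, Cps1, Otc and Asl were not called. Over all tested genes 38.2% were called, 7.69% higher and 30.6% lower. NEC and control values were fully separate in 6 of the 8 members, against 59.1% of all tested genes. The median change of the 8 was -0.27, close to that of all genes. As the NEC and control contrast took part in choosing the members, nothing is read from these counts.

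**Figure D1:**
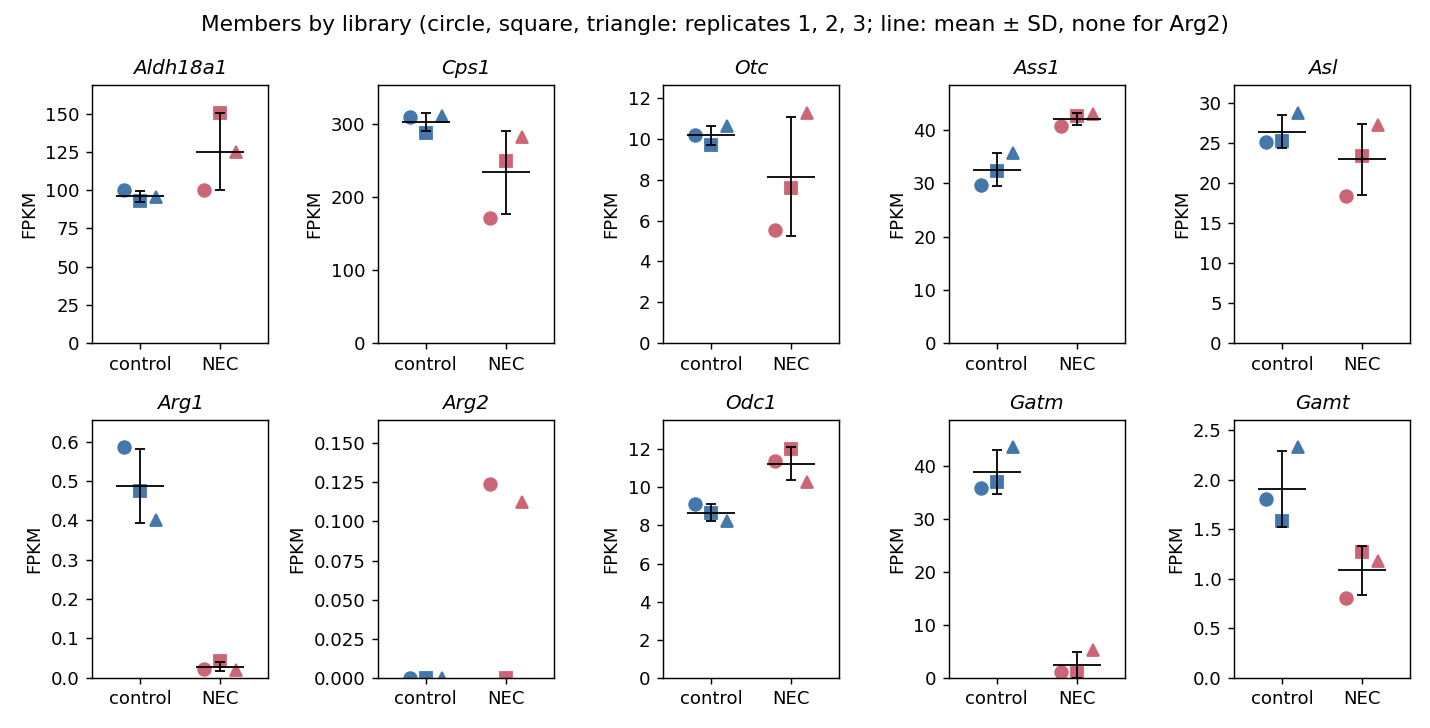
FPKM of each member in each library, with control in blue and NEC in red; each panel has its own axis from 0, bars are the mean and SD of 3 libraries, and Arg2 has none because it is listed at 0 in 4 libraries. Gatm lies between 35.9 and 43.5 FPKM in control and between 0.891 and 5.20 in NEC, while Otc and Asl overlap between the groups.

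Aldh18a1 encodes the mitochondrial enzyme that turns glutamate into the precursor of ornithine and proline, at chromosome 19, 40550257 to 40588463, minus strand (mm10). It was at 100.4, 151 and 125 FPKM in NEC 1, 2 and 3 and at 99.9, 92.9 and 95.4 FPKM in control 1, 2 and 3. NEC 1 lay level with control 1, and NEC 2 and 3 lay above all controls. The log2 change was 0.36 (SE 0.15, 95% interval -0.01 to 0.73) and was not called. It was called at 0.70 after TMM scaling, at 0.45 after scaling by protein-coding genes less the 100 most abundant, and at 0.51 without NEC 1. A processed pseudogene of another sequence, Gm15801, lies within the gene on the same strand and was listed at 20.0 to 29.2 FPKM. The longest Aldh18a1 coding transcript had no match to it at 90% identity over at least 200 bases. Whether fragments of the host were assigned to it was not tested.

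Cps1 encodes carbamoyl phosphate synthetase, the entry of ammonia into citrulline, at chromosome 1, 67123026 to 67231259, plus strand. By the listed entries it was the most abundant member in every library, though the sum of Ass1 and its copy, described below, was higher in NEC 1. It stood at 171, 249 and 282 FPKM in NEC and 310.2, 288 and 310.4 FPKM in control. Its single annotated transcript let the fragments be recovered, about 16075 to 29195 per library. All NEC libraries lay below all controls, with NEC 3 only just below control 2 and NEC 1 farthest down. The log2 change of -0.40 (SE 0.19, 95% interval -0.86 to 0.06) was not called, and it was -0.06 after TMM scaling. Without NEC 1 it was -0.19.

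Otc encodes ornithine transcarbamylase, which joins carbamoyl phosphate and ornithine into citrulline, at X, 10252305 to 10321024, plus strand. It stood at 5.55, 7.62 and 11.3 FPKM in NEC and at 10.2, 9.73 and 10.7 FPKM in control. NEC 3 was the highest library of all and NEC 1 the lowest, so the groups overlapped. The change was -0.34 (SE 0.22, 95% interval -0.86 to 0.19) and -0.03 after TMM scaling, and it was called only without NEC 3, at -0.57. Otc and Cps1 act in sequence, and the ratio of their FPKM within a library, which no scaling can alter, was 0.0325, 0.0305 and 0.0402 in NEC and 0.0329, 0.0338 and 0.0343 in control. Both groups thus held Otc at about the same small fraction of Cps1, with NEC 3 a little above the rest.

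Ass1 encodes argininosuccinate synthase, which starts the conversion of citrulline to arginine, at chromosome 2, 31470207 to 31520672, plus strand. It was at 40.8, 42.6 and 43.0 FPKM in NEC and 29.6, 32.3 and 35.8 FPKM in control, with all NEC libraries above all controls. The log2 change was 0.36 (SE 0.10, 95% interval 0.13 to 0.60) and 0.70 after TMM scaling. The call was lost without NEC 2, NEC 3, control 1 or control 2, at changes of 0.30 to 0.36.

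The Ass1 value is uncertain in level, because another entry of the table has nearly its sequence. Gm5424, a processed pseudogene at chromosome 10, 62071123 to 62072362, matched the longest Ass1 coding transcript at 99.5% identity over 1240 bases. It was listed at 166, 147 and 158 FPKM in NEC and 118, 121 and 138 FPKM in control, several times the Ass1 entry. The Ass1 entry held 19.7% to 22.4% of the sum of both in every library. The sum was 207, 190.0 and 201 FPKM in NEC and 147, 153 and 174 FPKM in control, a log2 change of 0.34 (SE 0.11), close to that of the Ass1 entry alone. How fragments that fit both were divided is not given in the sources used here, so the direction stands for both entries together, while the level of Ass1 set against other genes does not.

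**Figure D2:**
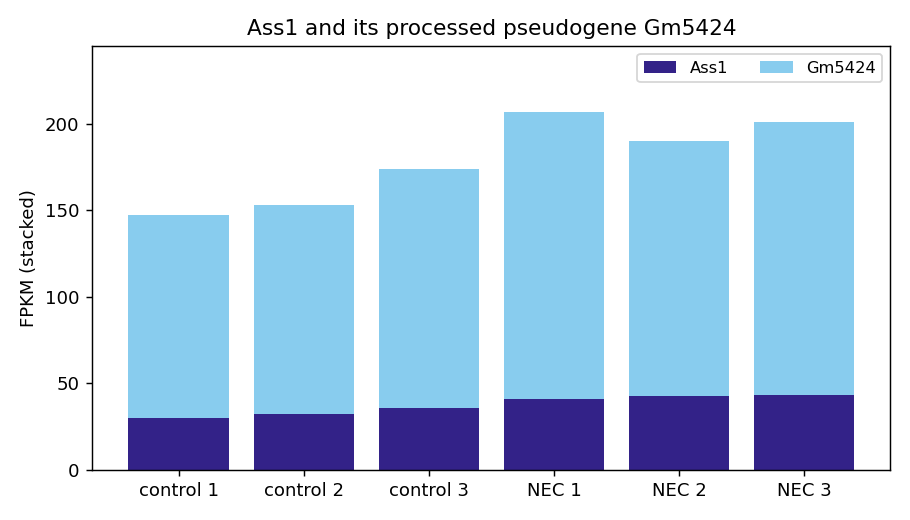
Stacked bars of the FPKM of Ass1 (dark) and of its processed pseudogene Gm5424 (light) in each library. The Gm5424 entry is the larger in every library, and the sum runs from 147 to 174 in control and from 190.0 to 207 in NEC.

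Asl encodes argininosuccinate lyase, which releases arginine, at chromosome 5, 130011258 to 130029247, minus strand. It was at 18.3, 23.3 and 27.2 FPKM in NEC and 25.2, 25.2 and 28.8 FPKM in control, and the groups overlapped. The change of -0.21 (SE 0.15, 95% interval -0.57 to 0.15) was not called on the deposited scale, and its sign turned after TMM scaling, to 0.12, also without a call. Within libraries the ratio of Ass1 to Asl was 2.23, 1.83 and 1.58 in NEC and 1.18, 1.28 and 1.24 in control. The pair that makes arginine from citrulline therefore did not keep its proportion: all NEC libraries held more Ass1 per Asl than any control, NEC 1 the most.

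The upstream sequences of Aldh18a1 and Ass1 are shown because both hold an E-box, CACGTG, the site read by Myc and related factors. In each it lies within the last 60 bases before the RefSeq start. The windows are the 250 bases before the start in RefSeq's table for GRCm38.p6, printed 5′ to 3′ on the gene's strand, with motif matches in capitals. Aldh18a1 lies at chr19:40588464-40588713 on the minus strand and Ass1 at chr2:31470020-31470269 on the plus strand.
Aldh18a1: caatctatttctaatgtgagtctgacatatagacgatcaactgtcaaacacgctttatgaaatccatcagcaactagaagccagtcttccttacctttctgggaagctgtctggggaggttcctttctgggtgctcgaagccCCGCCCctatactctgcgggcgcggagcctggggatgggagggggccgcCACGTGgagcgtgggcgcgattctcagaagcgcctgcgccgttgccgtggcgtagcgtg
Ass1: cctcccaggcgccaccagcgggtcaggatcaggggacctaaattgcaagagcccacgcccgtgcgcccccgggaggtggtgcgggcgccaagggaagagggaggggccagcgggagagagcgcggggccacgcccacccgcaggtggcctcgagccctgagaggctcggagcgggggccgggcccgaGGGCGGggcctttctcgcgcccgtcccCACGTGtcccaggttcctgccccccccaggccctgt
The E-box spans bases 59 to 54 before the RefSeq start in Aldh18a1 and bases 36 to 31 in Ass1. For Ass1 that start lies downstream of the gene start given above, 31470207. The E-box and the GC box of Ass1 thus lie inside the gene by those coordinates, and are upstream only by RefSeq. It is its own reverse complement and was found in 6.02% of the 32851 windows of that table. The other capitals are the GC box GGGCGG or its reverse complement CCGCCC, at 108 to 103 in Aldh18a1 and 63 to 58 in Ass1, which 32.7% of windows hold. Of the 10 members 6 had an entry in the table, and of the others among them Otc, Odc1, Gatm and Gamt had no CACGTG in the window. A match in letters is a description of the sequence only.

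RNA of arginase, the enzyme that splits arginine into ornithine and urea, was nearly absent. Arg1, the cytosolic form of liver and of some macrophages (chromosome 10, 24915221 to 24927484), was listed at 0.0225, 0.0420 and 0.0204 FPKM in NEC and 0.586, 0.476 and 0.400 FPKM in control. All controls lay above all NEC libraries. Arg2, the mitochondrial form (chromosome 12, 79130777 to 79156301), was listed at 0.124, 0 and 0.113 FPKM in NEC and at 0 in all controls. For Arg2 these values equal 3.00, 0 and 3.00 fragments, which is at the floor of what this depth can show. Its end overlaps Vti1b on the opposite strand by 285 bases, a gene at 7.91 to 10.1 FPKM, and without a stated strand setting fragments there cannot be told apart. Neither arginase reached a mean of 1 FPKM, so neither was tested, and no fold is given at such levels. Arg1 is made by myeloid cells as well as liver: the 12 myeloid markers summed to 114 to 129 FPKM in NEC and to 64.8, 136 and 120.2 FPKM in control 1, 2 and 3. Most of that sum was Lyz2, Csf1r, S100a8 and S100a9. Of the 10 tested 1 was called lower, Adgre1, at a log2 change of -0.87. Adgre1, Ptprc, Cd68 and Mrc1 lay below all controls in each NEC library, and Itgam lay above. Over all tested genes 47.3% lay fully below control and 11.8% fully above, while 30.6% were called lower and 7.69% higher. Of the 10 hepatocyte markers 4 were tested, and 3 of them, Ttr, Serpina1a and Fgb, were called lower in NEC, at log2 changes of -1.62, -1.06 and -0.68. Fga, also tested, was not called, though each NEC library lay below all controls. Apoh and Hpd, which were not tested, also lay below all controls in each NEC library, at no more than 0.0536 and 0.507 FPKM. Cyp2e1 and Tat, not tested either, overlapped between the groups. Tat was at 3.54 FPKM in NEC 1 and at no more than 0.168 FPKM in any other library. Ahsg was at 0 and Alb at no more than 0.103 FPKM in every library. The part of other cells in the Arg1 difference was not tested.

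Odc1 encodes ornithine decarboxylase, which commits ornithine to polyamines, at chromosome 12, 17544794 to 17551505, plus strand. It was at 11.4, 12.0 and 10.3 FPKM in NEC and 9.14, 8.67 and 8.22 FPKM in control, with no overlap. The log2 change was 0.34 (SE 0.10, 95% interval 0.11 to 0.57) and 0.65 after TMM scaling. The call was lost without NEC 2 or without any 1 of the controls, at changes of 0.29 to 0.37. Its sequence has 11 annotated relatives at 90% identity or more over at least 200 bases, most of them processed pseudogenes. The most abundant, Gm7993, was at 4.26 to 6.54 FPKM in NEC and 4.06 to 5.23 in control, so the Odc1 value also rests on how shared fragments were divided.

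Creatine is made from arginine and glycine by Gatm, which forms guanidinoacetate in mitochondria, and Gamt, which methylates it. Gatm, at chromosome 2, 122594467 to 122611303, minus strand, was at 1.10, 0.891 and 5.20 FPKM in NEC and 35.9, 37.1 and 43.5 FPKM in control. No NEC library came near the controls, and NEC 3 stood above NEC 1 and 2. The means were 2.40 ± 2.43 FPKM in NEC and 38.8 ± 4.11 FPKM in control (SD, n = 3 each), which puts control 16.2 times above NEC. The log2 change was -3.77 (SE 0.44, 95% interval -4.81 to -2.73), and 0.0632% of tested genes had a larger change in either direction. It was called lower under all 13 other settings tried, at -4.39 to -3.46, and at -3.51 after TMM scaling. By group mean, Gatm lay above 94.6% of tested genes in control and above 36.4% in NEC.

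The Gatm upstream window (GRCm38.p6, chr2:122611278-122611527, minus strand) is shown because this gene carries the largest difference among the members.
Gatm: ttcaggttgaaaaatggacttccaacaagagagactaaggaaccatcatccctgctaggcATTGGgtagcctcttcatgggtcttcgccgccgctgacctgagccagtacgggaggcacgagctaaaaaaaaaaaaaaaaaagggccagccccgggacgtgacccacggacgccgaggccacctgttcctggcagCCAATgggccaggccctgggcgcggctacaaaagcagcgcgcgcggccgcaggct
The capitals mark the CCAAT box, once as CCAAT at bases 55 to 51 and once as its reverse complement ATTGG at bases 190 to 186 before the RefSeq start. The end of the window, from 122611303 on, lies inside the gene by the coordinates given above, and both matches lie outside it. It occurs in 33.8% of all windows. The window held no TATA box (TATAAA), GC box, E-box, CRE (TGACGTCA) or amino acid response element (TGATGNAA), each searched on both strands.

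Gamt, at chromosome 10, 80258151 to 80261012, minus strand, was low throughout, at 0.800, 1.27 and 1.18 FPKM in NEC and 1.80, 1.59 and 2.33 FPKM in control. The groups did not overlap. The change was -0.48 (SE 0.15, 95% interval -0.84 to -0.12), and the call was lost under each of the 12 other settings in which Gamt was tested, with -0.28 after TMM scaling and -0.10 after quantile normalization. Its mean of 1.49 FPKM lies just above the filter. Within libraries the ratio of Gatm to Gamt was 1.37, 0.702 and 4.42 in NEC and 19.9, 23.4 and 18.7 in control. The control ileum thus held far more Gatm RNA per unit of Gamt RNA.

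**Figure D3:**
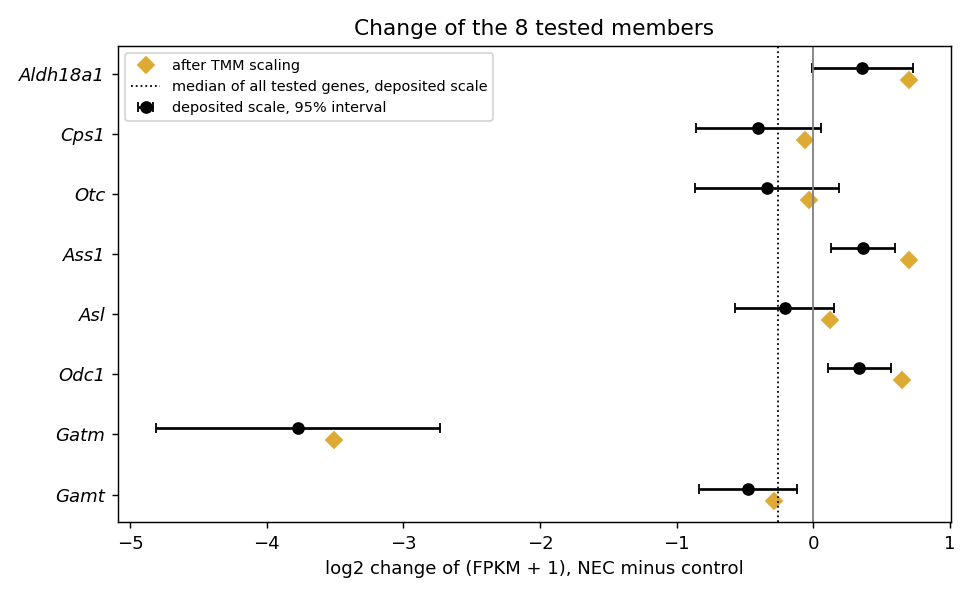
Log2 change of FPKM + 1, NEC minus control, for the 8 tested members; black points with bars are the fit on the deposited scale with its 95% interval, yellow diamonds the change after TMM scaling, and the dotted line the median of all tested genes at -0.26. Gatm lies at -3.77, apart from the others, which lie between -0.48 and 0.36, and TMM scaling moves all 8 upward.

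Ass1 is left out of the order of levels, since its entry and its sum with Gm5424 would take different places. In control the order of the other 9 was Cps1, Aldh18a1, Gatm, Asl, Otc, Odc1, Gamt, Arg1 and Arg2, and the ranges of neighbours in it did not overlap. In NEC it was Cps1, Aldh18a1, Asl, Odc1, Otc, Gatm, Gamt, Arg2 and Arg1. There Odc1 and Otc overlapped, as did Gatm and Gamt, and Arg2 and Arg1. Gatm went from the third place to the sixth of these 9, and Odc1 and Otc changed places within their spread. The Ass1 entry lay between Asl and Gatm in control, whereas the sum of Ass1 and Gm5424 lay between Aldh18a1 and Cps1.

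The other genes of these pathways came from lists written by function. Of 63 such genes 54 were tested: 9 were called higher and 21 lower, with a median change of -0.33, beside 7.69% higher and 30.6% lower and a median of -0.26 over all genes. After TMM scaling 12 were higher and 11 lower. Without control 1 or control 2, 4 were higher and 6 lower in each case.

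Of the 6 other creatine genes 2 were called higher and 2 lower, with a median of -0.45, beside 7.69% higher and 30.6% lower over all genes. Slc6a8, the transporter that takes creatine into cells, rose from 35.5, 36.5 and 36.0 FPKM in control to 57.8, 65.4 and 58.2 FPKM in NEC (log2 0.73, SE 0.09, adjusted p = 0.00496, limma, Benjamini-Hochberg). Ckmt1, the mitochondrial creatine kinase of epithelia, rose from 25.2 ± 2.32 to 43.9 ± 2.59 FPKM (SD, n = 3 each; log2 0.78, limma adjusted p = 0.00576). Ckmt2, the mitochondrial creatine kinase of striated muscle, fell from 3.81 ± 0.225 to 0.518 ± 0.250 FPKM (log2 -1.68, limma adjusted p = 0.00205). These 3 were called with the same direction under each other setting in which they were tested. Slc16a12, a creatine exporter, fell by 0.91 on the log2 scale, a call lost under 9 of 12 other settings. Ckb and Ckm were not called. Slc6a8 and Gatm were nearly equal in control, with a ratio of 0.990, 0.984 and 0.826, while in NEC 1, 2 and 3 there was 52.8, 73.4 and 11.2 times as much Slc6a8 as Gatm. The uptake gene Slc6a8 and the synthesis gene Gatm thus lay on opposite sides in NEC. The 10 muscle and fibroblast markers had 5 lower and none higher, beside the same 30.6% and 7.69% over all genes. Those 5 were Col1a1, Col1a2, Col3a1, Pdgfra and Dcn. The muscle genes Acta2, Myh11, Tagln, Des and Actg2 were not called. Of these Acta2, Myh11 and Tagln lay below all controls in each NEC library, as did 47.3% of all tested genes, while Des and Actg2 overlapped. In bulk tissue, fewer cells of a type and less RNA per cell cannot be told apart.

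Among 23 tested genes that supply glutamate and ornithine or carry their products, 6 were higher and 7 lower, with a median of -0.23, beside 7.69% higher and 30.6% lower over all genes. With TMM scaling 7 were higher and 3 lower, and without control 1 or control 2, 2 were higher and 2 lower. Glul, glutamine synthetase, fell from 45.4 ± 1.58 to 20.3 ± 3.20 FPKM (log2 -1.13, limma adjusted p = 0.00417). Among the aminotransferases, Got1, which links aspartate and glutamate, rose from 8.08 ± 0.598 to 18.4 ± 3.24 FPKM (log2 1.08, limma adjusted p = 0.00543), and Gpt, which makes alanine, from 0.335 ± 0.0621 to 3.33 ± 1.28 FPKM (log2 1.65, limma adjusted p = 0.0065). Those 3 kept their call and direction under all other settings in which they were tested.

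Oat, ornithine aminotransferase, which turns the product of Aldh18a1 into ornithine, was among the most abundant genes of these pathways. It fell from 611, 596 and 630.3 FPKM in control to 331, 416 and 476 FPKM in NEC (log2 -0.60, SE 0.16, limma adjusted p = 0.0261), and was -0.26 and not called after TMM scaling (limma adjusted p = 0.12). The call was lost under 7 of 13 other settings, among them no filter, without NEC 2 and without any 1 control. The ratio of Aldh18a1 to Oat within a library was 0.303, 0.363 and 0.262 in NEC and 0.163, 0.156 and 0.151 in control, with no overlap. Slc25a12, an aspartate and glutamate carrier of mitochondria, fell by 0.93, and Slc25a22, a glutamate carrier, and Slc7a7, which exports arginine and lysine from enterocytes, rose by 1.02 and 0.55 on the log2 scale. Those 3 calls were lost without control 1 or control 2. Slc25a15, the carrier that exchanges ornithine and citrulline, was at 17.1, 33.5 and 29.3 FPKM in NEC and 33.6, 30.9 and 32.8 FPKM in control and was not called.

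Of 10 tested genes listed under arginine use, 1 was higher and 7 lower, with a median of -0.66, beside the same 7.69% and 30.6%. The list covers nitric oxide, agmatine and methylarginine genes and includes Nosip, Azin2 and the protein methyltransferases Prmt1 and Prmt5. Its count therefore does not stand for enzymes that consume arginine alone. With TMM scaling 1 was higher and 4 lower. The enzymes that break down methylarginines, inhibitors of nitric oxide synthase, went opposite ways: Ddah2 fell from 10.5 ± 0.646 to 3.14 ± 1.57 FPKM (log2 -1.55, limma adjusted p = 0.0117) and Ddah1 rose from 7.00 ± 0.101 to 9.54 ± 1.43 FPKM (log2 0.39, limma adjusted p = 0.0411). The Ddah1 call was lost under 7 of 13 other settings and the Ddah2 call without control 1 or control 2. Nos1, the neuronal nitric oxide synthase, and Prmt5, an arginine methyltransferase, fell by 0.65 and 0.87 on the log2 scale, and neither call held when any 1 control was left out. Azin2, an antizyme inhibitor, fell by 0.88 (limma adjusted p = 0.00785) and kept its call under the 12 other settings in which it was tested. Nos2, the inducible synthase, did not pass the filter, with 2.33 FPKM in NEC 1, 0.470 and 0.716 in NEC 2 and 3, and 0.351 to 0.617 in control. Without control 1 or control 2, 1 gene of this list was called lower and none higher.

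The polyamine list had 5 of 16 genes lower and none higher, with a median of -0.27, a share lower that is near the 30.6% of all genes. When any 1 control was left out, 2 were lower. After TMM scaling 2 were higher and 3 lower. Oaz1, the antizyme that sends ornithine decarboxylase to the proteasome, was at 7.70, 8.23 and 8.06 FPKM in NEC and 17.0, 13.2 and 19.5 FPKM in control (log2 -0.95, limma adjusted p = 0.00786). That fall belongs to the Oaz1 entry alone: its pseudogene Oaz1-ps, 99.3% identical over 685 bases, reached 91.5 FPKM, and the sum of both was 97.1 ± 4.26 in NEC and 104.0 ± 0.524 in control, a difference of -0.10 on the log2 scale. Oaz2 fell by 0.77, and its sum with Oaz2-ps by 0.77 as well. Sms, spermine synthase, fell by 0.56 and its sum with the identical Sms-ps by 0.82, and Mtap, which recycles a by-product of polyamine synthesis, fell by 0.79. Neither the Sms nor the Mtap call held when any 1 control was left out, and Sms was not called after TMM scaling. Azin1, an antizyme inhibitor that spares Odc1, was at 19.4, 11.1 and 8.73 FPKM in NEC and 8.14, 5.33 and 6.52 FPKM in control, above all controls in each NEC library but not called (limma adjusted p = 0.0589).

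**Figure D4:**
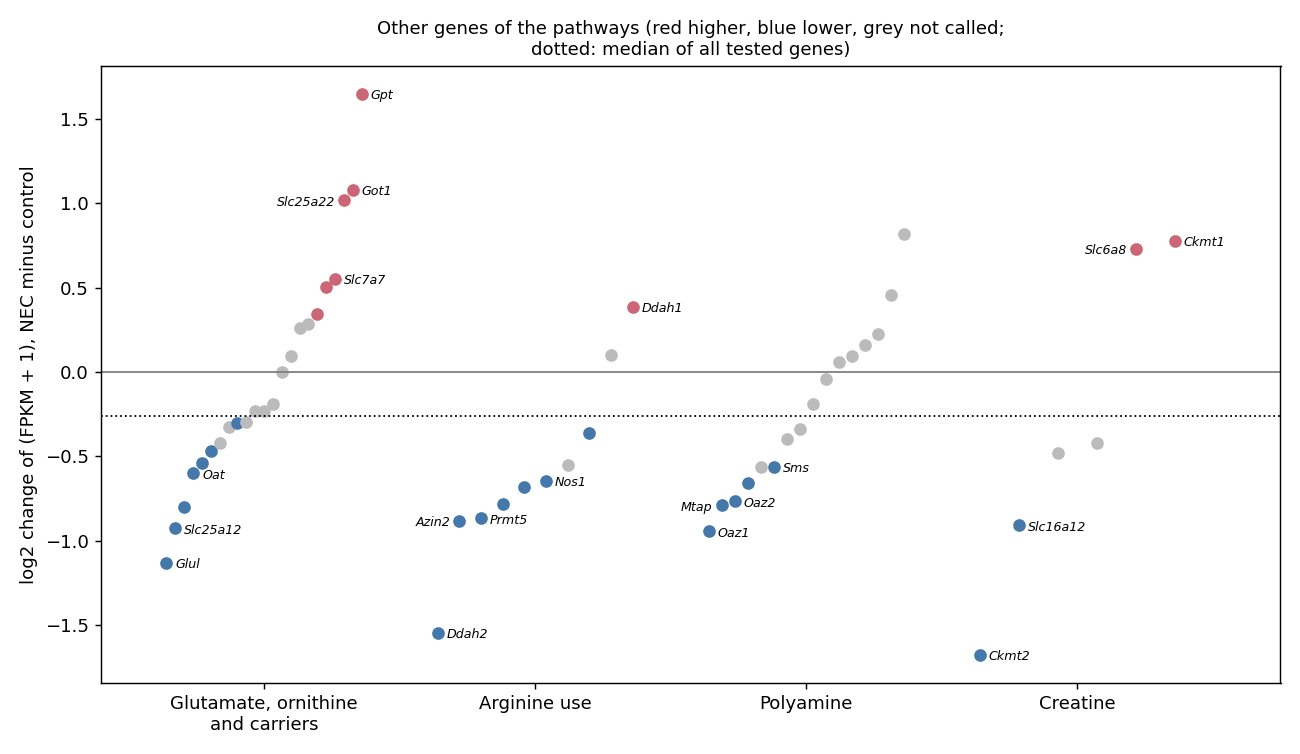
Log2 change of FPKM + 1, NEC minus control, for every tested gene of the 4 pathway lists, in red where called higher, blue where called lower and grey where not called; the dotted line is the median of all tested genes. The creatine list splits, with Slc6a8 and Ckmt1 at 0.73 and 0.78 and Ckmt2 at -1.68, and the polyamine list has no gene called higher.

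Of 10 listed regulators, whose link to these genes was not tested, 1 was called higher and 1 lower, beside 7.69% and 30.6% over all genes. Klf4 rose by 0.52 (limma adjusted p = 0.0152), a call lost without any 1 of the controls. Nr3c1, the glucocorticoid receptor, fell by 0.65 (limma adjusted p = 0.0436), a call lost under 10 of 13 other settings. Myc was at 0.871 ± 0.0866 FPKM in NEC and 1.24 ± 0.337 FPKM in control (SD, n = 3 each) and was not called. Hnf4a, a factor of enterocyte and liver genes, was at 64.9 ± 13.2 FPKM in NEC and 64.2 ± 2.29 FPKM in control (SD, n = 3 each). The remaining 8 were not called.

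The genes closest to Gatm in profile over the 6 libraries, out of 11378 other protein-coding genes, were Slc6a14, Rarres1 and Anxa8, at Euclidean distances of 1.08, 1.16 and 1.21 between centred log2(FPKM + 1) values. Slc6a14, an amino acid transporter, was at 0.568, 0.289 and 0.827 FPKM in NEC and 16.4, 21.1 and 20.4 FPKM in control. Rarres1 was at 0.268, 0.706 and 10.4 FPKM in NEC and 38.4, 40.7 and 42.8 FPKM in control. Anxa8, an annexin, was at 0.622, 1.11 and 2.21 FPKM in NEC and 15.3, 18.0 and 18.3 FPKM in control. All 3 share with Gatm that NEC 3 was the highest of the NEC libraries, Rarres1 most plainly. As they were picked by nearness over these same libraries, the choice itself favours such a likeness.

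Cell type markers were set beside these results, with 7.69% of all tested genes called higher and 30.6% lower. Of 7 general epithelial markers 1 was higher and 1 lower, and they summed to 1257 to 1490 FPKM in NEC and 1137 to 1252 in control. The adhesion gene Epcam was at 247, 206 and 240.1 FPKM in NEC and 247, 251 and 251 FPKM in control. Per unit of Epcam, Gatm was at 0.00443, 0.00432 and 0.0217 in NEC and 0.146, 0.148 and 0.173 in control. The general epithelial markers did not move alike: Krt19 fell from 129.7 ± 13.0 to 49.8 ± 15.8 FPKM and Vil1 rose. Of 10 absorptive enterocyte markers 9 were higher and 1 lower, and their sum went from 1421 to 1541 FPKM in control to 3433 to 4141 FPKM in NEC. Against the enterocyte gene Vil1, which was higher in NEC, the ratio of Cps1 was 0.615, 0.866 and 1.03 in NEC and 1.99, 1.72 and 1.77 in control, and that of the Ass1 entry was 0.147, 0.148 and 0.157 in NEC and 0.190, 0.193 and 0.204 in control. Against Epcam, Cps1 was at 0.692, 1.21 and 1.17 in NEC and 1.26, 1.15 and 1.24 in control, with overlap. Against Epcam, the Ass1 entry was at 0.165, 0.207 and 0.179 in NEC and 0.120, 0.129 and 0.142 in control. Whether Ass1 lay above or below control, and whether Cps1 overlapped, thus depended on which epithelial gene was used.

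Gatm is abundant in pancreas and kidney as well. Of 11 pancreatic acinar markers Prss2, Pnlip and Amy2b were at 0 in all libraries and 10 stayed under 1 FPKM in every library, and all 5 kidney tubule markers stayed under 1 FPKM. The hepatocyte list summed to 26.5 to 47.3 FPKM in NEC and 90.4 to 109 FPKM in control. Most of that was Ttr, at 17.8, 31.2 and 42.1 FPKM in NEC and 97.3, 79.3 and 94.0 FPKM in control. Of 10 markers of the distal ileum 1 was higher and 4 lower, near the 7.69% higher and 30.6% lower of all tested genes. Fgf15, the ileal hormone of bile acid feedback, fell from 5.97, 5.55 and 5.88 FPKM in control to 0.452, 0.0821 and 1.35 FPKM in NEC (log2 -2.14, limma adjusted p = 0.00519). Lrp2, an endocytic receptor, fell from 6.64 ± 0.839 to 1.18 ± 0.657 FPKM (log2 -1.85, limma adjusted p = 0.00475). Dab2 and Nox4 fell by 0.45 and 0.75 on the log2 scale, and Tmigd1 rose by 1.21. The ileal endocytic genes Cubn and Amn were at 96.1 to 160 and 175 to 186 FPKM in NEC and at 131 to 139 and 186 to 211 FPKM in control, whereas the bile acid genes Fabp6 and Slc10a2, also markers of the ileum, did not exceed 10.4 and 2.30 FPKM in any library. Fabp6 was at 0.123, 0 and 10.4 FPKM in NEC and 1.20, 1.23 and 2.45 in control. The part of these cell markers in the differences of the members was not tested.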

How the data were processed

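RNA of terminal ileum from 6 libraries, 3 NEC and 3 control, was used. HISAT2, Cuffdiff, SAMtools 1.3.1 and the mouse build mm10 are named in the submitters' processing notes. Annotation, strand setting and the treatment of fragments that fit several genes are not given in the sources used here. No unit is named in the deposited table. FPKM, computed by the authors, was taken as the unit, because Cuffdiff gives FPKM and because genes with a single transcript took values in whole fragments when low: 98.6% to 98.8% of values below 100 fragments were whole within 0.01. The N columns were taken to be NEC libraries, number for number. Of the 55487 identifiers, 55141 matched GENCODE M21, also on mm10, which gave symbols and coordinates.

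Groups were compared on log2(FPKM + 1) with limma 3.58.1 (R 4.3.3), allowing the variance to follow the mean, with group as the only term and a filter at an average of 1 FPKM. The fit takes a common variance for both groups of a gene, although the median SD on this scale was 0.211 in NEC and 0.0936 in control. A pseudocount of 1 understates changes of low genes. Calls are at a Benjamini-Hochberg adjusted p under 0.05. An exact permutation test of 3 against 3 cannot go below p = 0.1, so none was used. The script was tested on simulated data in which both groups had the same spread, which the real groups did not.

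The members and the lists were chosen with earlier results of these data known. Named genes are all members and, per list, up to 4 called genes in each direction with the smallest p, and for the member with the largest change the 3 protein-coding genes nearest in profile. A gene that this rule names is not reported here. Further genes named for their role in the pathway, and gene copies, were chosen after their values were seen. Pycr3 was matched as Pycrl. Copies were sought with minimap2 2.31-r1302 among GENCODE transcripts, at 90% identity over at least 200 bases. Sequences are from RefSeq's promoter table, whose windows were shortened to the 250 bases before the start. Alternatives were a pseudocount of 0.1, no filter, a filter at an average of 5 FPKM, TMM scaling (unweighted, trimming 30% of ratios and 5% of levels at each end), quantile normalization, scaling by the summed protein-coding genes less the 100 most abundant, the replicate number as a block, and each library left out in turn. The sum of Ass1 and Gm5424 was added after seeing the data. Plots were made in Python 3.11.15 (matplotlib 3.10.9).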

Additional observations from a re-analysis of the deposited data

How the results depend on the processing

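Gatm was called lower in all settings, at -4.39 to -3.46 on the log2 scale. Members called higher, 2 in the reported fit, were 3 with TMM scaling and 3 with protein-coding scaling, where Aldh18a1 joined, and 0 to 3 when each library was left out in turn. Members called lower, also 2, were 1 with a pseudocount of 0.1, with a filter at a mean of 5 FPKM, with TMM scaling, with quantile normalization and with protein-coding scaling, since Gamt did not pass or was not tested, and 1 to 2 when each library was left out in turn. With no filter Arg1 was called lower in place of Gamt.

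Pathway genes went from 9 higher and 21 lower to 9 lower at a mean of 5 FPKM, with fewer genes tested, and to 11 lower with TMM scaling. Quantile normalization gave 14 lower. Leaving out each library gave 4 to 10 higher and 6 to 25 lower. Over all genes, 1215 higher and 4829 lower became 2631 and 2261 with TMM scaling, 2202 and 2387 with quantile normalization, and 1746 lower at a mean of 5 FPKM. Leaving out each library gave 481 to 1584 higher and 1004 to 5302 lower. The median log2 change of all genes was -0.33 with a pseudocount of 0.1, -0.11 with no filter and -0.15 at a mean of 5 FPKM. The causes were not tested.

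The labels do not say that replicate numbers pair libraries. Deviations of same-numbered libraries correlated at -0.05, -0.01 and -0.07. With 3 libraries in each group this cannot exclude a pairing, and the main fit took the numbers as names. With the replicate number as a block, members called higher were 0 and lower 1, pathway genes 8 and 14, and all genes 856 and 3230. With few libraries, depth of 15.2 to 18.7 M fragments limits statements on Arg1, Arg2 and Gamt.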

Other observations

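Ctrb1, a chymotrypsinogen gene of the pancreas, was the exception in its marker list, at 10.8, 4.45 and 1.34 FPKM in NEC and 0.292, 0.150 and 0 FPKM in control (log2 2.22, limma adjusted p = 0.022, Benjamini-Hochberg). Mxd1, which opposes Myc, was at 97.8 FPKM in NEC 1 and at 23.3 to 31.1 FPKM in the other 5 libraries. S100a8, a neutrophil gene, was at 1.69 FPKM in control 1 and at 23.1 to 27.4 FPKM in the others. Odc1-related Gm7450, a processed pseudogene on chromosome 17, was at 1.74, 2.05 and 2.14 FPKM in NEC and 0.278, 0.228 and 0.161 FPKM in control, a larger proportional difference than that of Odc1. These genes were chosen after their values were seen.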
